A study of Mus musculus with 6 samples.

Results

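The genes described here are the 10 that encode NF-kB subunits and their feedback inhibitors, taken by gene symbol from a deposited table of 35434 genes. They are the 5 subunit genes Nfkb1, Nfkb2, Rela, Relb and Rel, and the 5 inhibitor genes Nfkbia, Nfkbid, Nfkbie, Nfkbiz and Tnfaip3. All 10 were found and all 10 passed the filter on low values, which kept 13945 genes. The samples were lesional skin of mice with psoriasis, as 6 RNA-seq libraries in 2 groups. The 3 Ctrl-Treg libraries came from mice that received control regulatory T cells (Tregs) by transfer. The 3 Lenv-Treg libraries came from mice that received Tregs treated with lenvatinib, a drug that inhibits receptor tyrosine kinases of blood vessel and fibroblast growth factors. All mice therefore carried the disease and received cells, and no group without transfer was analysed here. The sources used here do not give the strain or age of the mice, the way psoriasis was induced or the way the cells were treated. They also do not say whether each library stands for its own mouse, so a p-value refers only to the spread among these samples, and that spread may be technical.

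NF-kB is a family of transcription factors that act as pairs of subunits. In a resting cell the pairs are held in the cytoplasm by IkB proteins, and signals from TNF, IL-1, IL-17 or microbial receptors make the IKK kinase mark the IkB for destruction. Freed pairs enter the nucleus and switch on inflammatory genes, and among these genes are those of their own inhibitors, which close a feedback loop. In the skin, keratinocytes as well as immune cells use the pathway, and IkB-zeta is known as a mediator of keratinocyte responses to IL-17 and IL-36. The mRNA of a subunit does not report how much of its protein is in the nucleus.

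Promoter sequences are shown because feedback in the pathway is known to act through kappaB sites, the DNA sites that NF-kB pairs bind. RefSeq windows of 300 bases (250 before and 50 after a start site, build GRCm38.p6) were at hand for 7 of the 10 members, 12 windows in all. There was none for Nfkb1, Relb and Nfkbiz. The NF-kB kappaB consensus was searched on both strands, and matches that overlap each other were counted separately. It matched in at least 1 window of 6 of the 7 members, all but Rela, and in 8 of the 12 windows. Among these 8, 2 windows of Nfkb2 overlap and share 1 matched site, which counts in both. Of all 10968 tested genes with a window, 6.46% had a match, and of all 32851 windows 4.51% had one. For each of the 6 members with a match, 1 stretch upstream of a start site is printed, 5′ to 3′ on the strand of the gene. The matched bases are in capitals. Further stretches with a match in Nfkb2 and Tnfaip3 are not printed.
Nfkbia: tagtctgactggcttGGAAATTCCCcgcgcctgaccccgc
Nfkbid: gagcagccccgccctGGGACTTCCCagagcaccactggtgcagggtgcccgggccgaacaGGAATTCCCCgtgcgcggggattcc
Nfkbie: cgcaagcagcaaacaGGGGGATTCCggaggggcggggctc
Tnfaip3: actggaatttccatcGGAAATCCCCct
Rel: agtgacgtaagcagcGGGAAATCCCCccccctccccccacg
Nfkb2: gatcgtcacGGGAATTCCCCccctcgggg

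The Nfkbia stretch lies on the minus strand at chr12:55492652-55492691, upstream of all annotated transcripts, and ends 5 bases before the start site. The Nfkbid stretch, with 2 matches, lies on the plus strand at chr7:30422165-30422249, in an intron of a longer transcript. The Nfkbie stretch is on the plus strand at chr17:45555579-45555618 and the Rel stretch on the minus strand at chr11:23771036-23771076, both upstream of all transcripts. The Tnfaip3 stretch ends at the base before a start site on the minus strand, at chr10:19015411-19015437, in an intron of a longer transcript. The Nfkb2 stretch, on the plus strand at chr19:46304689-46304717, is upstream of 1 start site and overlaps an annotated untranslated exon of another transcript. The Rel and Nfkb2 stretches each hold 2 matches, which overlap each other. Exons and introns are those of GENCODE M21. A match is a description of letters, and binding was not measured.

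Of the 10 members, 6 were higher in Lenv-Treg and none was lower by limma with an adjusted p under 0.05. All 5 inhibitor genes rose, and of the 5 subunit genes 1 rose, Nfkb2. Of all 13945 tested genes, 11.0% were called higher and 30.8% lower. The sample values did not overlap between groups, with Lenv-Treg higher, for 8 of the 10 members, against 14.4% of all tested genes, and with Lenv-Treg lower for none, against 41.0%. Levels are given as FPKM, the fragments of a gene divided by its length and by library depth. A difference is the mean log2(FPKM + 1) of Lenv-Treg less that of Ctrl-Treg, a scale on which changes of weakly expressed genes look smaller than they are. The median difference was 1.24 for the 5 inhibitors, 0.30 for the 5 subunits and -0.17 for all tested genes. In bulk tissue, more cells of a type and more RNA per cell cannot be told apart.

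**Figure D1:**
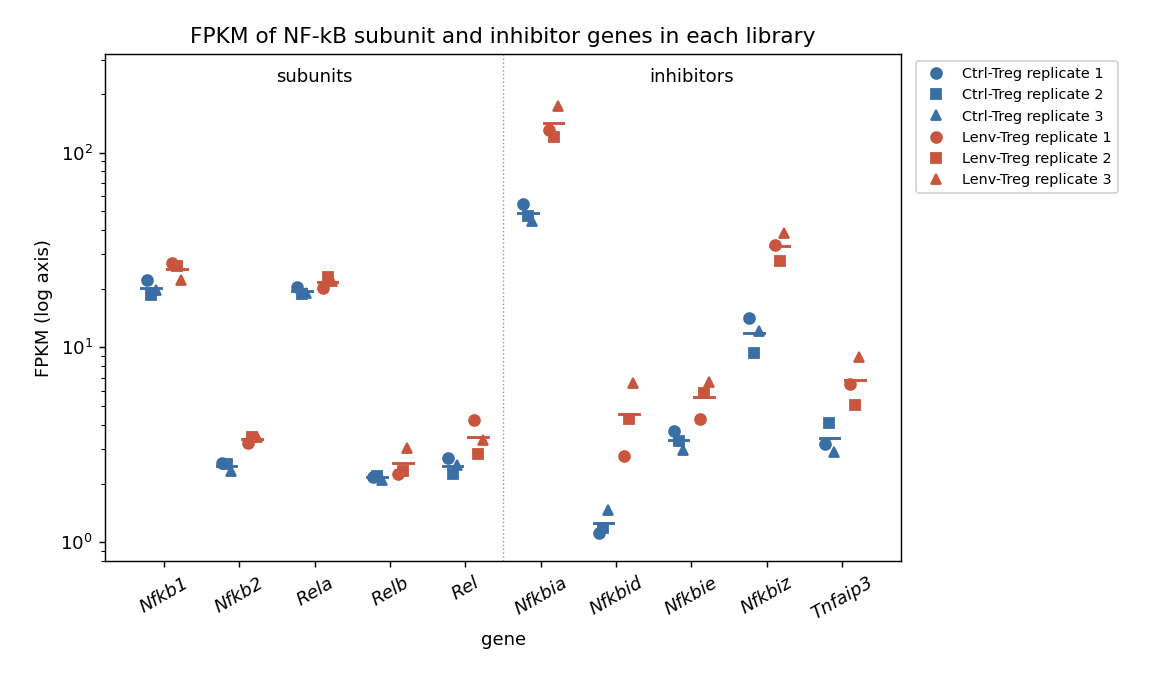
FPKM of the 10 genes in each of the 6 libraries on a log axis, with a short line at each group mean (3 libraries per group). The Lenv-Treg points of Nfkbia, Nfkbid, Nfkbie, Nfkbiz and Tnfaip3 all lie above the Ctrl-Treg points, while those of Nfkb1 and Rela overlap them.

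Nfkbia encodes IkB-alpha, the inhibitor that is destroyed and remade within the fast feedback loop. Its level was 54.2, 47.4 and 44.5 FPKM in the 3 Ctrl-Treg libraries and 131.0, 119.7 and 173.5 FPKM in the 3 Lenv-Treg libraries. Every Lenv-Treg library was above every Ctrl-Treg library. The mean rose from 48.7 ± 4.97 to 141.4 ± 28.4 FPKM (SD, n = 3 each), a 2.9-fold rise (log2 difference 1.5, SE 0.16, adjusted p = 0.000424). Only 1.94% of tested genes had a larger positive difference. Nfkbia was the most highly expressed member in both groups.

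Nfkbiz encodes IkB-zeta, a nuclear IkB protein that works with NF-kB at a subset of target genes. It had 14.1, 9.37 and 12.1 FPKM in the Ctrl-Treg libraries and 33.4, 27.6 and 38.8 FPKM in the Lenv-Treg ones. The groups were separate, with the third library highest in Lenv-Treg and the second lowest in both groups. The mean rose from 11.9 ± 2.38 to 33.3 ± 5.59 FPKM, 2.8-fold (1.42, SE 0.17, adjusted p = 0.000807), and 2.16% of tested genes had a larger difference.

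Nfkbid encodes IkB-NS, another nuclear IkB protein, and had the lowest level of the members in Ctrl-Treg. It had 1.12, 1.18 and 1.46 FPKM there, from 103 to 129 reads a library, and 2.78, 4.3 and 6.54 FPKM in Lenv-Treg, from 254 to 592 reads. The groups did not overlap, but the Lenv-Treg libraries were far apart from each other, with the highest 2.35-fold above the lowest. The mean rose 3.62-fold (1.24, SE 0.23, adjusted p = 0.00493), the largest ratio of means among the members. With a pseudocount of 0.1 its difference was 1.70, above that of Nfkbia (1.52).

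Tnfaip3 encodes A20, an enzyme that edits ubiquitin chains and stops signalling upstream of IKK. Its level was 3.21, 4.09 and 2.91 FPKM in the Ctrl-Treg libraries and 6.46, 5.08 and 8.9 FPKM in the Lenv-Treg ones. The highest Ctrl-Treg library and the lowest Lenv-Treg library were both the second of their group. The mean rose from 3.41 ± 0.615 to 6.81 ± 1.93 FPKM, 2.0-fold (0.81, SE 0.19, adjusted p = 0.0127).

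Nfkbie encodes IkB-epsilon, a slower inhibitor of RelA and c-Rel pairs. It had 3.73, 3.3 and 2.96 FPKM in the Ctrl-Treg libraries and 4.27, 5.82 and 6.65 FPKM in the Lenv-Treg ones. The groups were separate by a small gap, and the mean rose 1.68-fold (0.59, SE 0.15, adjusted p = 0.0182). This call was not kept without Ctrl-Treg replicate 3, Lenv-Treg replicate 2 or Lenv-Treg replicate 3 (adjusted p = 0.0558, 0.0646 and 0.0547), nor after rescaling to TPM (0.39, adjusted p = 0.064) or with no filter on low values (adjusted p = 0.0509). The rises of Nfkbia, Nfkbiz, Nfkbid and Tnfaip3 passed under all 15 alternative settings.

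The subunit genes differed less. Rela encodes p65, the main activating subunit, and had 20.5, 18.8 and 18.9 FPKM in the Ctrl-Treg libraries and 20.1, 23.0 and 22 FPKM in the Lenv-Treg ones. The groups overlapped, and the difference did not pass (0.15, 95% interval -0.06 to 0.37, adjusted p = 0.215). Nfkb1 encodes p105, an IkB-like precursor that is cut to the DNA-binding p50. It had 22.2, 18.5 and 19.7 FPKM in the Ctrl-Treg libraries and 27.0, 26.3 and 22.1 FPKM in the Lenv-Treg ones, so that the lowest Lenv-Treg library was just under the highest Ctrl-Treg library. Its difference was 0.30 (95% interval 0.04 to 0.57, adjusted p = 0.0657). A gene's FPKM does not separate a precursor from its cut product, here or for Nfkb2.

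The subunits of the slower, non-canonical branch are p100, cut to p52 and encoded by Nfkb2, and RelB. Nfkb2 stood at 2.54, 2.52 and 2.32 FPKM in the Ctrl-Treg libraries and at 3.23, 3.48 and 3.47 FPKM in the Lenv-Treg ones, and the groups were separate. It rose 1.38-fold (0.34, SE 0.09, adjusted p = 0.0164). The call was not kept without Ctrl-Treg replicate 3 or Lenv-Treg replicate 2 (adjusted p = 0.0595 and 0.0629), nor after rescaling to TPM (0.15, adjusted p = 0.309). Relb had 2.17, 2.19 and 2.08 FPKM in the Ctrl-Treg libraries and 2.24, 2.33 and 3.03 FPKM in the Lenv-Treg ones. Only the third Lenv-Treg library stood well above the rest, and the difference of 0.16 did not pass (95% interval -0.09 to 0.41, adjusted p = 0.267).

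Rel encodes c-Rel, a subunit best known from lymphocytes and myeloid cells. It had 2.7, 2.23 and 2.5 FPKM in the Ctrl-Treg libraries and 4.24, 2.85 and 3.35 FPKM in the Lenv-Treg ones. The groups were separate, with the first Lenv-Treg library highest, and the difference of 0.36 did not pass (95% interval 0.05 to 0.66, adjusted p = 0.0634). It passed after median-ratio scaling (0.51, adjusted p = 0.0181) and without Lenv-Treg replicate 2 (0.46, adjusted p = 0.0444), and Nfkb1 passed without Lenv-Treg replicate 3 (0.39, adjusted p = 0.0401).

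**Figure D2:**
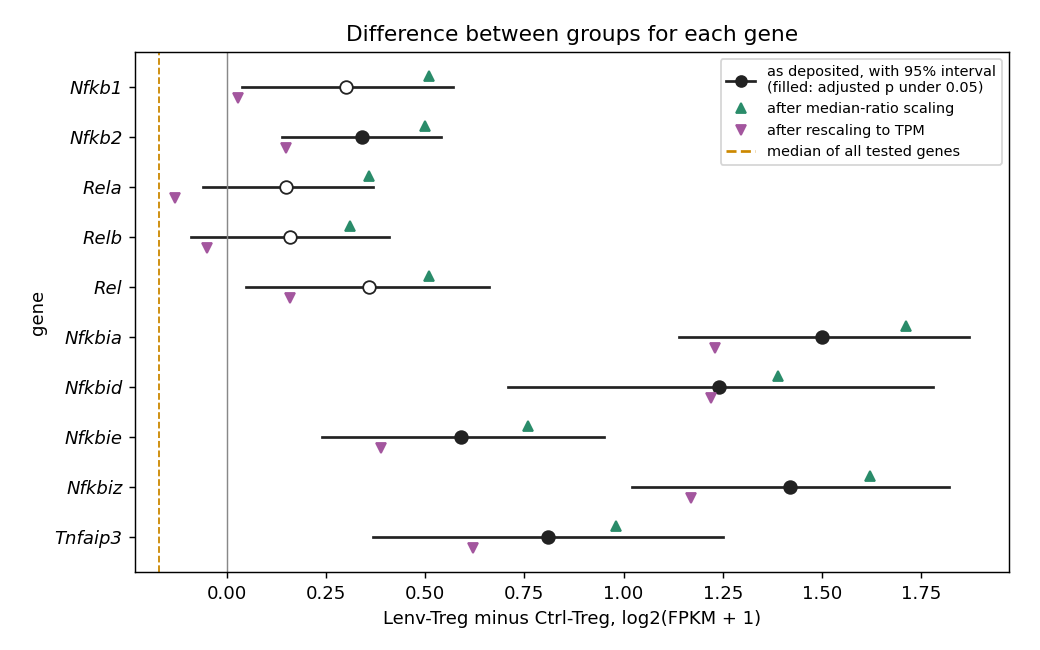
Difference between groups for each gene in log2(FPKM + 1), Lenv-Treg less Ctrl-Treg, with the 95% interval from limma, beside the value under 2 other scalings of the libraries. The 5 inhibitor genes and Nfkb2 have filled points, and all values of the inhibitors are above 0, while Rela and Relb cross 0 after rescaling to TPM.

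The libraries held 38704536 to 40248462 reads, as recovered from the steps of the values. The keratinocyte genes Krt5 and Krt14, which check the skin label, had means of 865.3 and 769.4 FPKM in the Ctrl-Treg libraries and 1628.9 and 4427.5 FPKM in the Lenv-Treg ones. Which cells a mouse received cannot be read from any gene, so the group labels stand as given. Markers of other cell types moved in the same libraries. Of 17 neutrophil markers 14 were tested, of which 13 rose and none fell. The untested Ltf, Mpo and Elane stayed under 0.5 FPKM in every library. Mmp8, Ly6g, Ngp and Trem1 were under 0.5 FPKM in every Ctrl-Treg library. These genes passed the filter only through Lenv-Treg, so they could not have been called lower. Of 15 monocyte and macrophage markers 8 rose and 2 fell. Over all tested genes, 11.0% were called higher and 30.8% lower. The summed FPKM of the neutrophil list was 62.4 to 220.3 in Ctrl-Treg, against 38209 to 53977 in Lenv-Treg, in Lenv-Treg nearly all of it S100a8 and S100a9, which keratinocytes also express. Without these 2 genes the sum was 18.5 to 39.1 in Ctrl-Treg, against 341.8 to 644.9 in Lenv-Treg. Ly6g, a defining neutrophil gene, had a mean of 0.0632 FPKM in the Ctrl-Treg libraries and 4.22 FPKM in the Lenv-Treg ones. The monocyte and macrophage sum was 2452 to 3147 and 3858 to 4330 FPKM. Of 10 keratinocyte markers 4 rose (Krt5, Krt14, Dsg3 and Perp) and 2 fell, Krt15 (-3.72) and Krt10 (-1.25). Krt1 (0.01), Trp63 (-0.12), Dsc3 (0.09) and Ivl (-0.06) did not pass. The keratinocyte sum was 3852 to 5500 FPKM in Ctrl-Treg and 8775 to 10624 FPKM in Lenv-Treg. Within that list Krt14 had the largest rise in FPKM. Hair follicle markers all fell (11 of 11, sums of 1518 to 3285 and 3.12 to 20.6 FPKM). Of the T cell list 9 genes were tested, of which 1 rose and 2 fell, with sums of 19 to 27.3 and 14.5 to 20.8 FPKM. Of 7 tested fibroblast markers 4 fell, among them Col1a1 (-1.96), of 6 adipocyte markers 4 fell, among them Adipoq (-1.66), and of 7 dendritic and Langerhans cell markers 3 fell, with none higher in these 3 lists. The dendritic and Langerhans cell sum was 50.7 to 64.0 and 21.1 to 34.8 FPKM. Of 7 endothelial markers 1 rose, and none of 7 skeletal muscle markers or the 1 tested B cell marker passed. Mpo, a gene of neutrophil precursors, was at 0 in 3 of 6 libraries. The part of any of these cells in the levels of the NF-kB genes was not tested.

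The scaling between libraries moved all genes together. Over all tested genes the median difference stood at -0.17 as deposited, at 0 after median-ratio scaling and at -0.44 after rescaling to TPM, and nothing in the table decides between them. All 10 members had a positive difference as deposited and after median-ratio scaling, while Rela (-0.13) and Relb (-0.05) were below 0 after rescaling to TPM. After median-ratio scaling 9 members passed, all but Relb, and 2417 of all 13945 tested genes were called higher. After rescaling to TPM 4 members passed, which were Nfkbia (1.23), Nfkbid (1.22), Nfkbiz (1.17) and Tnfaip3 (0.62). Of all 13945 tested genes 947 were then called higher.

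A ratio of 2 genes within a library does not depend on that scaling. The summed FPKM of the 5 inhibitors over that of the 5 subunits was 1.52, 1.48 and 1.41 in the Ctrl-Treg libraries and 3.13, 2.8 and 4.34 in the Lenv-Treg libraries. All 3 Lenv-Treg libraries were higher. Nfkbia made up 69.6% to 72.6% of the inhibitor sum in Ctrl-Treg, against 73.6% to 74.0% in Lenv-Treg, so the sum is largely its value. Nfkb1 and Rela each made up 35.4% to 47.5% of the subunit sum in every library, and Nfkb2, Relb and Rel each made up 3.95% to 7.46%. These levels rest on the gene lengths behind the FPKM. On the lengths of the longest coding transcripts Nfkb2 made up 11.1% to 13.5% and Relb 11.7% to 15.8% of the subunit sum, and the summed inhibitors over the summed subunits came to 1.04 to 1.13 in the Ctrl-Treg libraries and 2.08 to 3.09 in the Lenv-Treg libraries.

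Set against Rela in the same library, Nfkbia was at 2.64, 2.52 and 2.36 times its FPKM in Ctrl-Treg and at 6.52, 5.21 and 7.87 times in Lenv-Treg. Nfkbiz was below Rela in every Ctrl-Treg library, at 0.688, 0.498 and 0.642, and above it in every Lenv-Treg library, at 1.66, 1.2 and 1.76. On the length of each gene's longest coding transcript, a setting added after the data were seen, that ratio was 0.379 to 0.524 over the Ctrl-Treg libraries and 1.27, 0.916 and 1.34 over the Lenv-Treg libraries, so Nfkbiz was then below Rela in Lenv-Treg replicate 2. The groups were separate on both lengths. Of the 9 ratios to Rela, 6 did not overlap between groups and all 6 were higher in Lenv-Treg (Nfkb2 and the 5 inhibitors), against 9.64% of 13801 tested genes that were higher and 47.5% that were lower. The mean ratio was higher by 1.36 on the log2 scale for Nfkbia, 1.33 for Nfkbiz, 1.62 for Nfkbid, 0.82 for Tnfaip3, 0.57 for Nfkbie and 0.30 for Nfkb2. Each of these 6 had p = 0.1 in an exact permutation test, two-sided, the smallest that 3 against 3 samples allow, and 0.15 when adjusted over the 9 ratios. With 1 FPKM added to both genes 5 ratios did not overlap, and without Lenv-Treg replicate 2 or 3 it was 7.

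**Figure D3:**
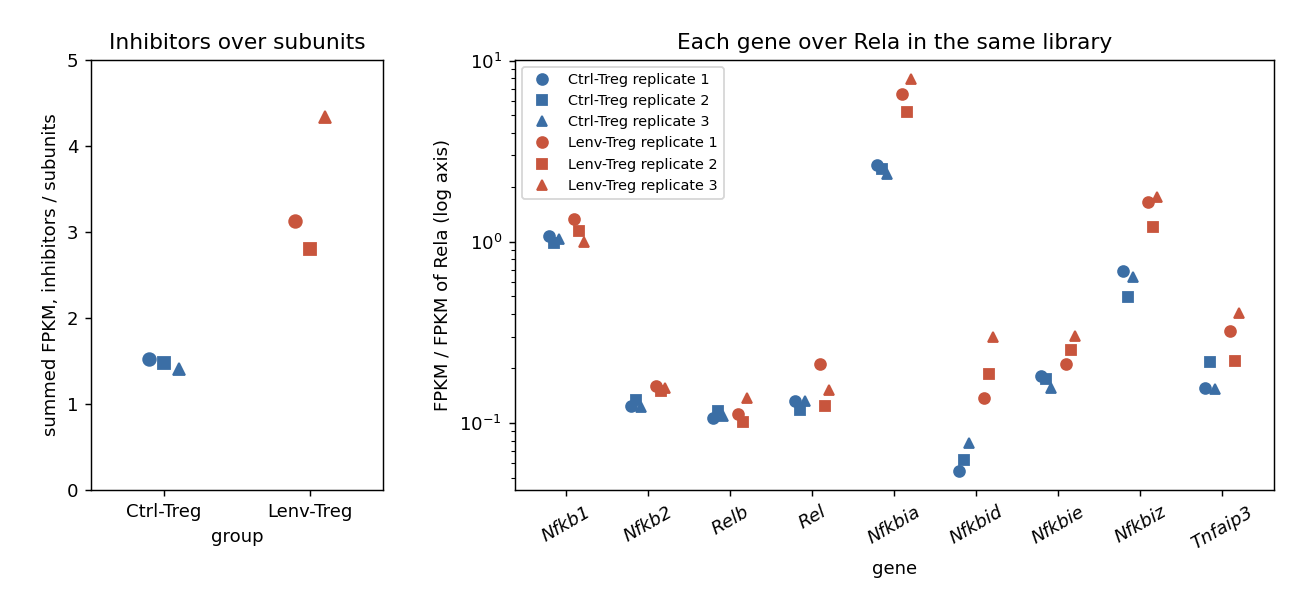
Left, summed FPKM of the 5 inhibitor genes over that of the 5 subunit genes in each library, and right, FPKM of each gene over that of Rela in the same library on a log axis. The left panel shows 1.41 to 1.52 in Ctrl-Treg, against 2.8 to 4.34 in Lenv-Treg, and on the right the 2 groups are separate for Nfkb2 and the 5 inhibitors.

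The libraries within a group also differed. Lenv-Treg replicate 3 held the highest Lenv-Treg value of all 5 inhibitors and of Relb, but the lowest of Nfkb1. Without it the difference was 1.35 for Nfkbia, 1.30 for Nfkbiz, 0.99 for Nfkbid, 0.62 for Tnfaip3 and 0.47 for Nfkbie. The ratio of Nfkbia to Nfkbiz ranged from 3.67 to 5.06 over the Ctrl-Treg libraries and from 3.93 to 4.47 over the Lenv-Treg libraries, so the 2 ranges overlapped.

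The order of levels in Ctrl-Treg was Nfkbia, Nfkb1, Rela, Nfkbiz, Tnfaip3, Nfkbie, Rel, Nfkb2, Relb and Nfkbid, by mean FPKM. Sample values overlapped for the neighbours Nfkb1 and Rela, Tnfaip3 and Nfkbie, and Rel and Nfkb2. In Lenv-Treg, Nfkbiz stood at place 2 with 33.3 FPKM, above Nfkb1 and Rela. Nfkbid stood at place 7 there, with values that overlapped those of Tnfaip3, Nfkbie, Rel, Nfkb2 and Relb. FPKM depends on the gene length that was used, which was recovered from the steps of the values. It was 11300 bases for Nfkb2 and 8706 for Relb, while the longest coding transcripts in GENCODE M21 are 3846 and 2209 bases. On those shorter lengths the Ctrl-Treg means would be 7.23 FPKM for Nfkb2 and 8.47 FPKM for Relb, and they would stand at places 6 and 5 of 10 rather than 8 and 9, an order computed after the data were seen. On the coding lengths Nfkbid stood at place 9 in Lenv-Treg, above Rel alone. For Nfkbia the lengths were 1579 and 1578. Differences between groups do not depend on the length, apart from the constant of 1 added before taking logs.

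By the distance between centred log2 profiles over the 6 libraries, the genes most like Nfkbia, the member with the largest difference in log2(FPKM + 1), were Gpld1, Rnd1 and Duox1 (root mean square distance 0.124, 0.125 and 0.125). Gpld1 encodes a phospholipase and Duox1 an oxidase of epithelia. For Nfkbiz, looked at after the values were seen, the nearest gene was Bcl3 (0.0787), which encodes a further nuclear IkB protein. No member fell, so no gene is given for a fall.

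Among 15 other inhibitors and deubiquitinases of the pathway, 4 rose (Zc3h12a, Bcl3, Otulin and N4bp1), 1 fell (Otud7b) and 10 did not pass. The list had a median difference of -0.01 (0.19 after median-ratio scaling and -0.29 after rescaling to TPM). As deposited, 11.0% of all tested genes were called higher and 30.8% lower, with a median of -0.17. Zc3h12a encodes regnase-1, an enzyme that degrades inflammatory mRNAs. It had 14.8, 7.1 and 12.4 FPKM in the Ctrl-Treg libraries and 47.6, 52.6 and 56.9 FPKM in the Lenv-Treg ones (2.15, SE 0.23, adjusted p = 0.000477). Bcl3 had 8.02, 4.87 and 5.93 FPKM in the Ctrl-Treg libraries and 16.3, 15.1 and 21.5 FPKM in the Lenv-Treg ones (1.37, SE 0.19, adjusted p = 0.00132). In both genes all Lenv-Treg libraries were higher. The 2 genes of the list with the highest levels, Rnf11 (-0.18, adjusted p = 0.222) and Tax1bp1 (-0.02, adjusted p = 0.868), did not pass as deposited and passed as lower after rescaling to TPM (-0.47 and -0.31, adjusted p = 0.0132 and 0.0384). That scaling called 7970 of all 13945 tested genes lower, with a median difference of -0.44 over all tested genes. It also ended the calls of Otulin (0.12) and N4bp1 (0.08), and median-ratio scaling ended that of Otud7b (-0.23). Without Ctrl-Treg replicate 2 or Lenv-Treg replicate 3, 2 of the list rose, and without Lenv-Treg replicate 2 or 3 none fell.

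Of 30 genes of the IKK complex and its upstream adaptors and ligases, 7 rose, 5 fell and 18 did not pass. The list had a median of -0.04 (0.14 and -0.31 under those scalings). Over all tested genes as deposited, 11.0% were called higher and 30.8% lower, with a median difference of -0.17. The IKK subunit genes, Chuk (-0.16, adjusted p = 0.274), Ikbkb (0.00, adjusted p = 0.991) and Ikbkg (-0.20, adjusted p = 0.149), named after their values were seen, did not pass as deposited. After rescaling to TPM all 3 passed as lower (-0.44, -0.28 and -0.48, adjusted p = 0.0208, 0.0324 and 0.0204). Under that scaling 7970 of all 13945 tested genes were called lower, and the median difference over all tested genes was -0.44. Myd88, the adaptor of IL-1 and Toll-like receptors, rose from 26.6 ± 3.72 to 45.4 ± 3.62 FPKM (0.75, adjusted p = 0.0028). Bcl10 (0.53), which links CARD proteins to MALT1, the CARD protein gene Card9 (0.92) and the kinase gene Irak2 (0.72) rose too, with adjusted p up to 0.00409. Without Ctrl-Treg replicate 1, 2 or 3 the count of genes that fell was 2, 3 and 1, and without Lenv-Treg replicate 2 or 3 it was 1 and 3.

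Of 29 tested textbook target genes of NF-kB, 20 rose, 1 fell and 8 did not pass, with a median difference of 0.89. The shares over all tested genes were 11.0% called higher and 30.8% called lower. Csf2 lay outside the filter, at 0.276 FPKM or less. Cxcl2, a neutrophil chemokine gene, rose from 0.844 ± 0.97 to 444.7 ± 152.6 FPKM (7.98), from as few as 3 reads in a Ctrl-Treg library. Il1b, which encodes IL-1 beta, rose by 5.72 and Saa3, an acute phase protein gene, by 6.30. Vcam1, an adhesion molecule of vessels, rose from 2.86 ± 0.608 to 11.7 ± 0.88 FPKM (1.73, adjusted p = 0.000146). The gene that fell was Irf1 (-0.65, adjusted p = 0.00848), which is also a target of interferon gamma, and its call ended after median-ratio scaling (-0.45, adjusted p = 0.0522). All 13 genes of a list of epidermal genes linked to IkB-zeta rose, with a median of 3.75, against 11.0% of all tested genes. Among them S100a8 (9.09) and S100a9 (8.92), the subunits of calprotectin, the defensin gene Defb4 (5.77) and the protease inhibitor gene Slpi (5.41) rose. Defb4, Il17c, Il24 and Cxcl5 were under 0.5 FPKM in every Ctrl-Treg library, as were Csf3 and Nos2 of the textbook list. These genes passed the filter only through Lenv-Treg, so they could not have been called lower. Cxcl1, Cxcl2, Il6, Ptgs2 and Il19 were under 0.5 FPKM in some but not all Ctrl-Treg libraries. Their passing of the filter therefore also rested on Lenv-Treg values. Both lists were chosen with earlier results of these data known. Neutrophils express S100a8, S100a9 and Lcn2 as well, and Ccl20 is on both lists.

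**Figure D4:**
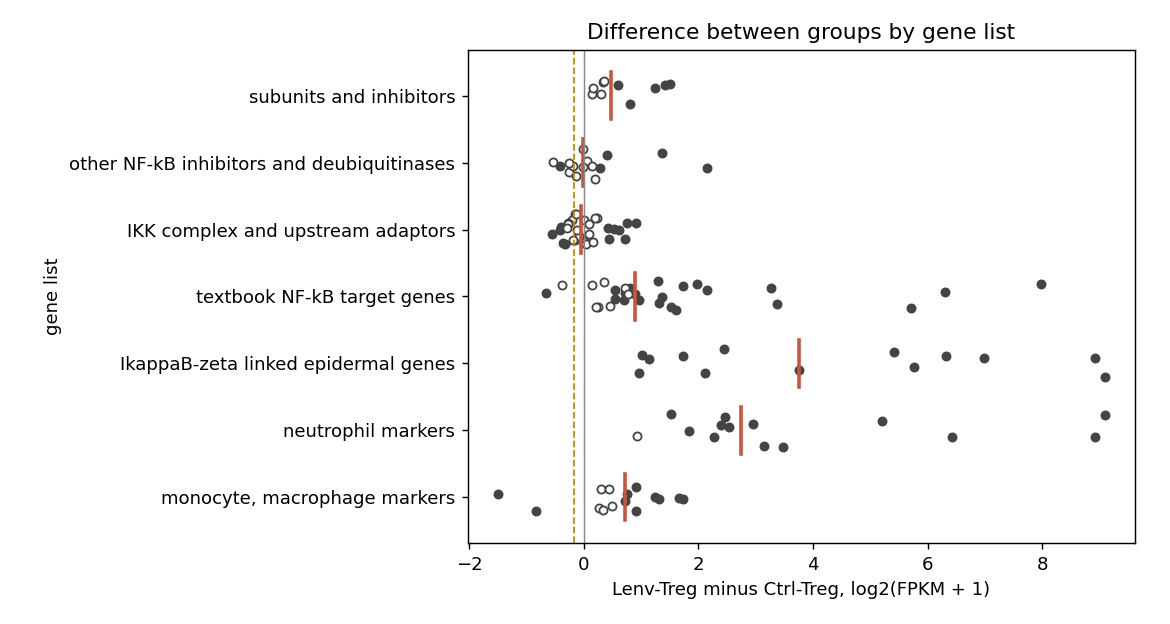
Difference between groups of each tested gene in log2(FPKM + 1), Lenv-Treg less Ctrl-Treg, by list, with filled points for an adjusted p under 0.05 and a red bar at the list's median. The dashed line marks the median of all tested genes (-0.17), the medians of the IKK list (-0.04) and of the other inhibitors (-0.01) lie close to 0, and those of the 10 subunit and inhibitor genes (0.47), textbook targets (0.89), IkB-zeta linked genes (3.75), neutrophil markers (2.74) and monocyte and macrophage markers (0.72) lie above it.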

How the data were processed

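The deposited table gives gene-level FPKM for 6 skin libraries, 3 per group. The authors aligned to build GRCm39, per the submitters' processing notes, and their aligner, counter and annotation were not given in the sources used here. Groups come from the labels' treatment field. The members and the gene lists were chosen with earlier results of these data known. Low FPKM values are whole multiples of what 1 read is worth, which gave reads and gene lengths back: 99.69% to 99.72% of the depth was recovered.

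The main test was limma 3.58.1 (R 4.3.3) on log2(FPKM + 1), with the variance trended on the mean, over 13945 genes with at least 0.5 FPKM in 3 samples, with Benjamini-Hochberg adjustment over all of them and a threshold of 0.05. It was tested on simulated data. A count model is no main test for FPKM, and limma voom on the recovered reads was an alternative. Further alternatives were other pseudocounts and filters, median-ratio and TPM scaling, no trend, a replicate block, and leaving out each library. Beside all 10 members, the text names from each of 4 lists the 2 genes of highest mean FPKM, then the 2 of smallest p among the rest, and the 3 nearest profiles of the member with the largest difference in log2(FPKM + 1). Nearest profiles of other members are named only where stated. Ratios within a library were compared by exact permutation in Python 3.11.15. Protein sequences were not used here.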

Additional observations from a re-analysis of the deposited data

How the results depend on the processing

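Under the 15 alternative settings 4 to 9 members were called higher (9 with median-ratio scaling, 4 with TPM) and none lower. Leaving out 1 library at a time gave 4 to 6. Nfkbia, Nfkbid, Nfkbiz and Tnfaip3 passed in all 15, Nfkb2 in 12, Nfkbie in 10, Rel in 3, Nfkb1 in 2, Rela in 1 and Relb in 0. Rescaling to TPM reversed Rela (-0.13) and Relb (-0.05), and the cause was not tested. For all tested genes, 2417 were called higher and 2417 lower with median-ratio scaling, against 947 and 7970 with TPM, and leaving out 1 library gave 1152 to 1447 higher and 2780 to 3900 lower. The lowest count, 2780, came without Lenv-Treg replicate 2. Of the other inhibitors, 2 were called higher with TPM, and 0, 7 and 2 lower with median-ratio scaling, TPM and voom. Leaving out 1 library gave 2 to 3 higher and 0 to 1 lower. Of the IKK list, 3, 1 and 14 were called lower with no filter, median-ratio scaling and TPM, and leaving out 1 library gave 1 to 5. Of the textbook targets, 0 were called lower with median-ratio scaling. The list counts under alternatives and the levels, shares and ratios on coding transcript lengths were added after seeing the data. The correlations of same-numbered samples were 0.196, -0.0109 and 0.328, so not every pair was above 0.1, and whether the numbers pair the samples cannot be told from 3 such values. With the replicate block 7 members were called higher, Rel being the addition (adjusted p = 0.0385). The samples numbered 2 did not correlate best with each other. The small number of samples limits the precision of all members. For Nfkbid, with 103 reads in its lowest library, depth does too.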
